A study of Bos taurus with 14 samples.

Results

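The genes described here are those whose level in Day-4 bovine embryos recovered from the oviduct of lactating cows lay apart from both other kinds of Day-4 embryo. They were selected on the measured values. Levels were taken as CPM, the count of a gene divided by the total of its library and scaled by the same factor in all libraries, and a gene was kept where all 3 values from lactating cows were at least 2-fold above, or at least 2-fold below, all 6 values from the other Day-4 libraries. Every value on the higher side had to reach 5 CPM, the mean of the lower side 0.5 CPM and the mean of the Day-2 libraries 1 CPM, and genes at 150 CPM or more in all 14 libraries were not taken. The genes that the study lists by symbol, the genes that it lists under histone or nucleosome terms and a block of mitochondrial gene IDs were left out in advance, although none of them met the rule. This left 101 of the 27607 genes in the table: 79 that were higher and 22 that were lower in embryos from lactating cows. Among the genes that met every other part of the rule, these were 1.32% of 5981 genes on the higher side and 0.437% of 5029 on the lower side.

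The embryos of all groups were produced in vitro, from oocytes of abattoir ovaries inseminated with the semen of 1 bull. Day-2 embryos, labelled as 4-cell embryos, made up 5 libraries. Day-4 embryos, labelled as 16-cell embryos, made up 3 libraries in each of 3 groups. IVC embryos (called IVP in the labels) stayed in culture, in synthetic oviduct fluid with albumin. For the groups called DRY and LACT, embryos were transferred on Day 2, 50 at a time, into the oviducts of Holstein-Friesian cows after their first calving and were flushed out on Day 4. DRY cows had been dried off at calving and were never milked, and LACT cows had been milked since calving. Each library was made from a pool of 5 embryos, and each DRY or LACT pool came from 1 cow, so that cow and library cannot be told apart.

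At first the embryo lives on RNA and protein that the oocyte stored. This maternal RNA is then degraded, and the embryonic genome is transcribed in its place, a change that in cattle takes place over the cleavage divisions between the Day-2 and the Day-4 sample. A transcript can therefore be high on Day 4 because it was carried over from the oocyte or because it was newly made, and a count of RNA does not tell these apart. Early lactation draws on the glucose and fat stores of a dairy cow, so milked and dried-off cows differ in their metabolic state.

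No table used here pairs the Ensembl IDs of these genes with symbols. The genes are therefore named by their ID, at most a pair on each side for each comparison, and what they encode is given only where the study's lists of annotation terms hold the ID. Markers of the embryo or of oviduct cells could not be looked up, for the same reason. Total counts ranged from 22711367 to 40357379 per library, and 3 counts, the smallest signal taken as detected, stood for 0.0743 to 0.132 CPM. Some libraries were close to combinations of others. LACT replicate 3 lay between the other LACT libraries for 75 of the 79 genes and for all 22, with a median absolute log2 ratio to their mean of 0.01 over the 90 genes with a LACT mean of at least 5 CPM. IVC replicate 1 and DRY replicate 3 held the same place in their groups, with medians of 0.01 and 0.01 over the 43 and 37 such genes. This place was no trait of the 101 genes. Among all genes that averaged 5 CPM or more in the group, LACT replicate 3 lay between the others for 98.5% of 8685. The share was 98.5% of 8084 for IVC replicate 1 and 97.4% of 8001 for DRY replicate 3. For the other Day-4 libraries it was 0.53% to 1.45%, with medians of 0.50 to 0.59. On Day 2, the summed CPM of replicates 2, 3 and 4 differed from a weighted sum of replicates 1 and 5 by a median absolute log2 ratio of 0.04 over 7998 genes, against 0.28 to 0.40 for the other 9 ways of splitting the libraries. Nothing in the labels says that the Day-2 or IVC pools came from separate cultures, and replicates that are not independent make spreads and p-values too small. The counts were therefore also made without these 3 middle libraries of Day 4 (2 libraries per Day-4 group). The rule then found 81 genes higher and 22 lower, with all 101 of the genes described here among them. Leaving out libraries can only loosen the 2-fold and 5 CPM parts of the rule. That the 101 were kept was thus nearly fixed in advance, and nothing is read from it.

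As a share of the library total, the larger block of 79 genes was, in sum, as abundant in LACT as on Day 2. It was far less so in the other Day-4 groups. Equal sums did not mean equal levels of the single genes. All 5 Day-2 values were below all LACT values in 36 of the genes and above all of them in 18. The share of all genes with such positions was not counted. In such pools a lower level can stand for fewer cells that hold an RNA or for less of it per cell, and these cannot be told apart. The summed level of these genes was 2124, 2522, 2498, 2330.2 and 2855 CPM in the 5 Day-2 libraries and 2146, 2401, and 2273 CPM in the LACT libraries. In IVC it was 349.5, 303 and 406 CPM, and in DRY 318, 376 and 348 CPM. The LACT sums thus lay within the range of Day 2, and all 6 IVC and DRY sums were below it. Over the single genes, the median level was 9.04 to 15.9 CPM in a Day-2 library, 16.4 to 17.0 CPM in a LACT library and 1.69 to 2.73 CPM in an IVC or DRY library. The block of 22 genes had sums of 648 to 895 CPM on Day 2, of 685 to 694 CPM in IVC and of 653 to 671 CPM in DRY, but of 178, 188 and 182 CPM in LACT. Here IVC and DRY lay in the range of Day 2 and LACT lay below it. These positions relative to Day 2 hold for CPM, which is a share of the library. The 10 genes of highest counts in a library took 12.5% to 20.1% of it on Day 2. On Day 4 they took 40.6% to 46.8%, leaving less of the library for all other genes. The sums were not made with another scaling. The rule fixed the order of the Day-4 groups in both blocks, and the Day-2 level entered it only through the minimum of 1 CPM.

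**Figure D1:**
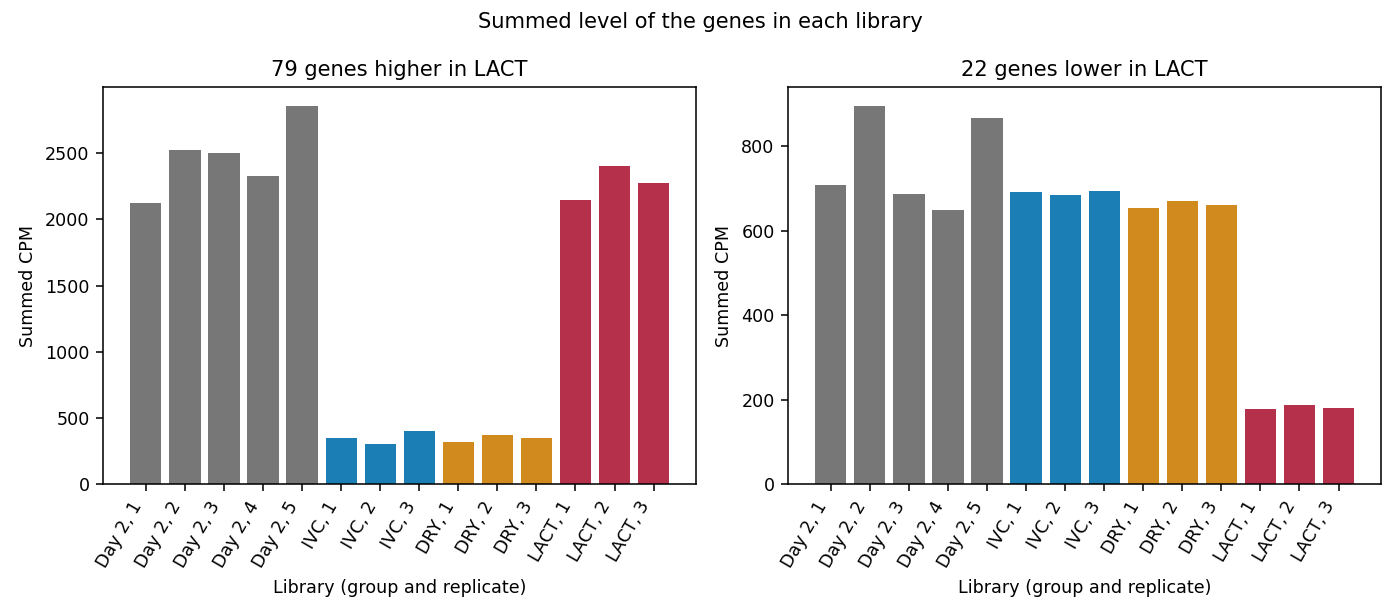
Summed CPM of the 79 genes higher in LACT (left) and of the 22 genes lower in LACT (right) in each of the 14 libraries, with 1 bar per library in the colour of its group. On the left the Day-2 and LACT bars stand at 2124 to 2855 CPM and the IVC and DRY bars at 303 to 406 CPM, and on the right the LACT bars are the lowest, at 178 to 188 CPM.

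**Figure D2:**
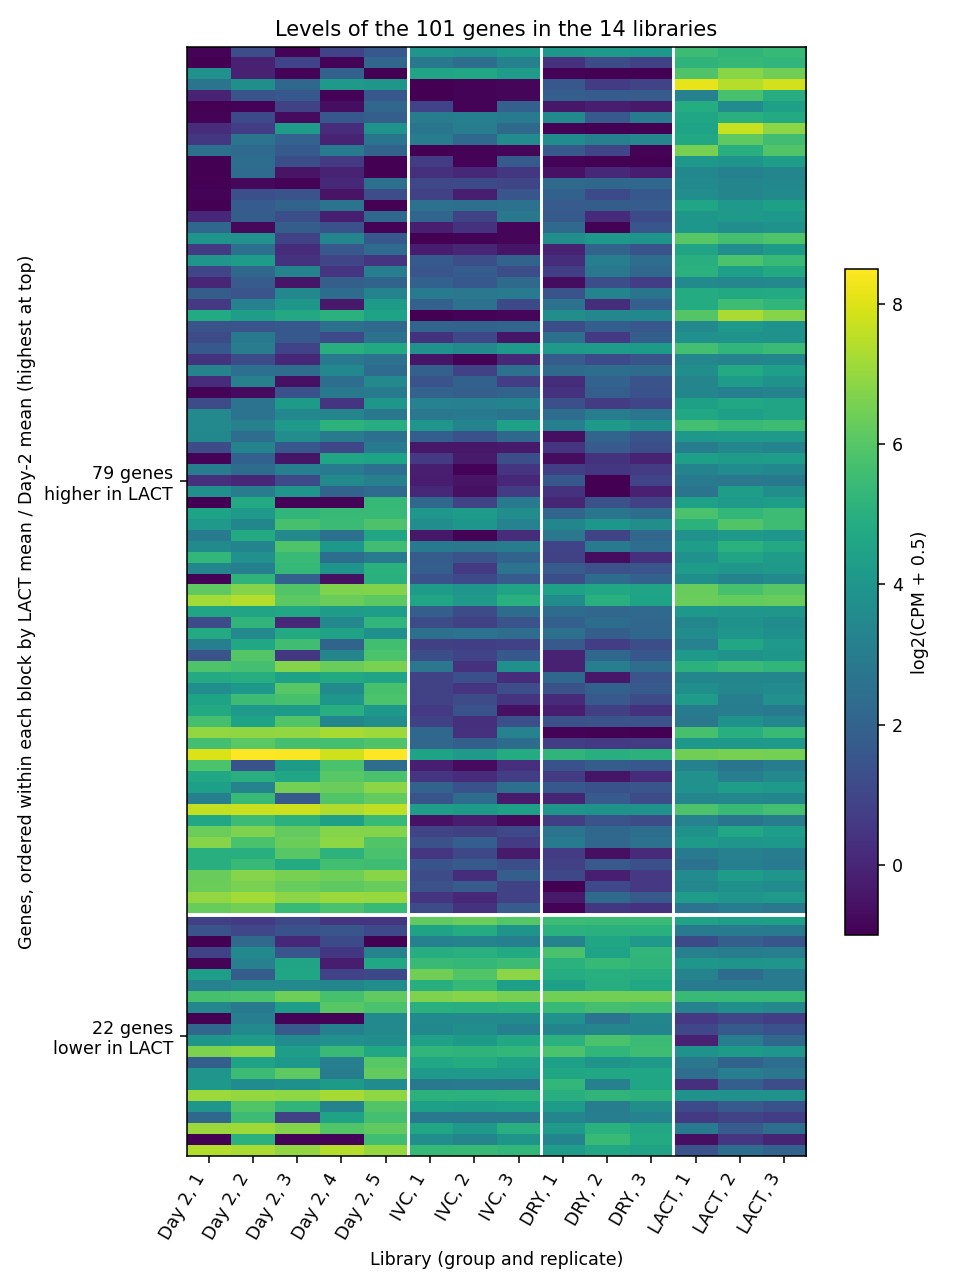
Level of each of the 101 genes (rows) in each of the 14 libraries (columns), as log2(CPM + 0.5), with the genes higher in LACT above the white line and the genes lower in LACT below it. Within each block the genes are ordered by the ratio of the LACT mean to the Day-2 mean. Genes lowest on Day 2 relative to LACT stand at the top of a block and genes highest relative to LACT at its bottom.

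The 2 widest separations were found in genes that were nearly absent from IVC, while of the 10 genes with a gap of 5 or more, 3 were at the floor in IVC, 1 was at the floor in DRY and the others were detected in both. The largest gap, the lowest LACT value divided by the highest IVC or DRY value, was 70.3 for ENSBTAG00000019399 and 11.5 for ENSBTAG00000021934, against a median of 2.76 over the 79 genes. ENSBTAG00000019399 was at 287, 173 and 230.0 CPM in LACT, at 2.46, 1.12 and 1.44 CPM in DRY and at 5.87, 12.7, 3.98, 16.7 and 15.9 CPM on Day 2, and no IVC library had more than 1 count. LACT was the highest group, Day 2 came next, and no value of a group overlapped with another. Its LACT mean was at least 1741-fold higher than 3 counts in the shallowest IVC library. ENSBTAG00000021934 was at 92.5, 30.9 and 60.6 CPM in LACT, at 5.18, 4.26, 2.76, 7.04 and 3.56 CPM on Day 2 and at 2.68, 1.49 and 0.0351 CPM in DRY, again with at most 1 count in each IVC library. The order of the groups was the same, with LACT replicate 1 well above replicate 2 and 1 of the 3 DRY libraries at 1 count. Both genes had every LACT library above and every IVC and DRY library below all 5 Day-2 libraries, which held for 5 of the 79 in all.

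In all, 9 of the 79 genes were at or under 3 counts in every library of a group, 5 of them in IVC and 4 in DRY, and none of these 9 had more than 1 count there. Their LACT means ranged from 16.7 to 229.9 CPM, at least 158-fold to at least 1741-fold higher than that group's floor of 3 counts in its shallowest library. ENSBTAG00000002647, which the study lists as a phosphoprotein, was at 61.9, 158 and 109 CPM in LACT, 12.3, 9.96 and 10.4 CPM in DRY and 27.8, 18.8, 26.2, 33.0 and 22.6 CPM on Day 2, with at most 1 count in an IVC library. On the other side, ENSBTAG00000000900 was at 53.4, 31.2 and 43.3 CPM in LACT and 4.03, 0.776 and 8.76 CPM in IVC, with at most 1 count in a DRY library. It was at 123, 122, 124, 153 and 137 CPM on Day 2, so that all 5 Day-2 libraries were above LACT. Both genes had 3 separate levels on Day 4, with LACT highest. None of the 22 lower genes was at or under 3 counts in every library of a group.

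**Figure D3:**
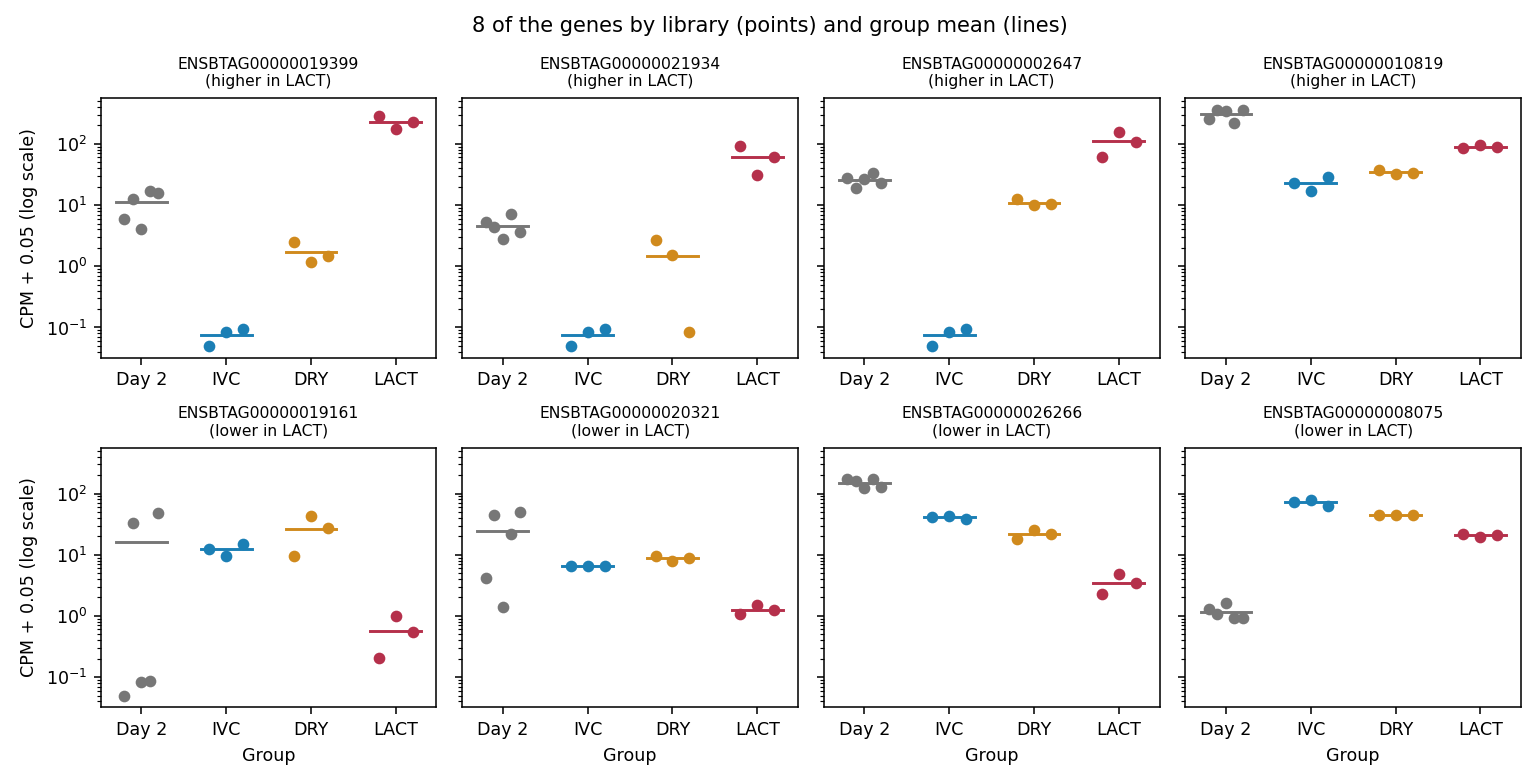
Level of 8 of the genes as CPM + 0.05 on a log axis, with a point per library and a line at each group mean. The upper row holds genes higher in LACT, 3 of them at 1 count or less in every IVC library, and the lower row genes lower in LACT, among them ENSBTAG00000026266, which was highest on Day 2, and ENSBTAG00000008075, which was lowest on Day 2.

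To place these levels on the path from Day 2 to Day 4, each Day-4 side was compared with the Day-2 libraries with edgeR's quasi-likelihood test on all 14 libraries, with Benjamini-Hochberg adjustment over 13390 genes (false discovery rate, FDR). All 101 genes passed the filter of the fit, which is no finding, since the rule asked for 5 CPM on one side. The comparison of IVC and DRY with Day 2 and that of LACT with Day 2 share the Day-2 libraries, and the rule used the Day-4 values of both. Their counts are therefore given side by side as a description, and so are the FDR values of the single genes named below. In IVC and DRY together, 45 of the 79 genes (57.0%) fell from Day 2 and 3 rose, where 31.4% of all genes tested fell and 29.8% rose. The genes tested did not have to meet the Day-2 minimum of 1 CPM that the 79 met. They include genes nearly absent on Day 2, which can rise but hardly fall, so all these shares come from unlike sets. This comparison averaged IVC and DRY on the log scale, so that a single group near the floor can give a fall by itself. Genes at the floor in a group were not set aside here. ENSBTAG00000008756 counted as fallen, although its DRY mean of 14.4 CPM was above its Day-2 mean of 8.24 CPM. In LACT, 13 of the 79 fell and 27 rose (34.2%), where 23.7% of all genes tested fell and 29.7% rose. The median log2 ratio of the mean CPM to that of Day 2 was -2.24 in IVC and DRY and 0.57 in LACT over the 79 genes. It was -0.69 and -0.65 over the 9041 genes with at least 1 CPM on Day 2 and 0.5 CPM on both Day-4 sides. In the edgeR fit, which scales libraries otherwise, the median log2 change of the 79 genes was -2.25 in IVC and DRY and 0.98 in LACT. Over all genes tested it was -0.076 and 0.17. When the middle libraries were left out, 40 of the 79 fell and 1 rose in IVC and DRY, and 8 fell and 14 rose in LACT. In that fit, 26.6% of all genes fell and 24.4% rose in IVC and DRY, and 17.1% fell and 22.3% rose in LACT.

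The genes that fell most clearly in IVC and DRY were abundant on Day 2. ENSBTAG00000018123 was at 79.6, 100.3, 74.8, 107 and 106 CPM on Day 2, and on Day 4 at 1.41, 1.25 and 1.63 CPM in IVC, 5.78, 4.16 and 4.88 CPM in DRY and 13.7, 25.5 and 19.4 CPM in LACT. The groups did not overlap, and LACT stood between Day 2 and the rest. From Day 2 it fell by 4.77 ± 0.30 (SE) on the log2 scale in IVC and DRY (edgeR, FDR = 8.77e-09) and by 1.96 ± 0.34 in LACT (edgeR, FDR = 0.000266). ENSBTAG00000010819, listed under centrosome, nucleus and cytosol, was the most abundant of the 79 on Day 2, at 253, 362, 347, 222 and 357 CPM. It was at 86.3, 94.3 and 90.0 CPM in LACT, at 22.6, 17.0 and 28.3 CPM in IVC and at 36.9, 31.6 and 33.8 CPM in DRY. It fell by 3.10 ± 0.20 in IVC and DRY (edgeR, FDR = 1.11e-08) and by 1.45 ± 0.24 in LACT (edgeR, FDR = 0.00017), the same order of groups as before. The lowest FDR among the genes that fell in LACT belonged to ENSBTAG00000001030, which is listed under coiled coil. It was at 200.03, 215, 219, 165 and 190.3 CPM on Day 2, at 57.3, 42.1 and 49.6 CPM in LACT, at 19.1, 17.4 and 20.7 CPM in IVC and at 14.5, 13.9 and 14.02 CPM in DRY. The fall was 1.67 ± 0.25 in LACT (edgeR, FDR = 7.7e-05) and 3.23 ± 0.21 in IVC and DRY (edgeR, FDR = 1.14e-08).

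Other genes of the 79 were low on Day 2 and highest in LACT. ENSBTAG00000004018, listed under zinc finger, metal binding and cytoplasm, was at 0.972, 5.74, 3.49, 0.467 and 5.89 CPM on Day 2, at 7.66, 4.22 and 11.4 CPM in IVC, at 11.9, 8.28 and 9.94 CPM in DRY and at 25.0, 69.8 and 47.0 CPM in LACT. It rose by 4.19 ± 0.71 on the log2 scale in LACT (edgeR, FDR = 0.000216) and by 1.85 ± 0.60 in IVC and DRY (edgeR, FDR = 0.0155), although the second call was lost with 2 libraries per Day-4 group. IVC replicate 2 lay within the range of Day 2. ENSBTAG00000049467 was at 0.0360, 1.90, 0.0332, 1.40 and 2.59 CPM on Day 2, at 15.2, 13.5 and 16.8 CPM in IVC, at 15.9, 16.5 and 16.1 CPM in DRY and at 44.7, 37.1 and 40.8 CPM in LACT. Here IVC and DRY overlapped and all Day-4 values were above Day 2, with a rise of 4.16 ± 0.87 in IVC and DRY (edgeR, FDR = 0.000904) and of 5.50 ± 0.98 in LACT (edgeR, FDR = 0.000309). ENSBTAG00000019399, described above, had the lowest FDR of the rises in LACT, with a log2 change of 4.73 ± 0.51 (edgeR, FDR = 3.52e-06). The rule had already picked this gene on its LACT values, so its FDR is a description.

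By the position of the Day-2 mean, 34 of the 79 genes had it above both Day-4 sides, 33 between them and 12 below both. Read library by library, all 5 Day-2 values were above all LACT values in 18 genes and below all of them in 36, and the ranges overlapped in the other 25. All 5 Day-2 values were above all IVC and DRY values in 35 genes and below all of them in 1. The rule had already set the Day-4 sides apart, and such positions were not counted over all genes. Nothing is therefore read from these counts as a trait of the 79. The Day-2 libraries themselves were uneven for these genes. The coefficient of variation over the 5 libraries had a median of 73.2% for the 79 genes and 68.9% for the 22, against 50.8% over the 10563 genes with a Day-2 mean of at least 1 CPM. Between 6 and 21 of the 79 genes were under 1 CPM in a single Day-2 library and the number was highest in replicate 1.

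**Figure D4:**
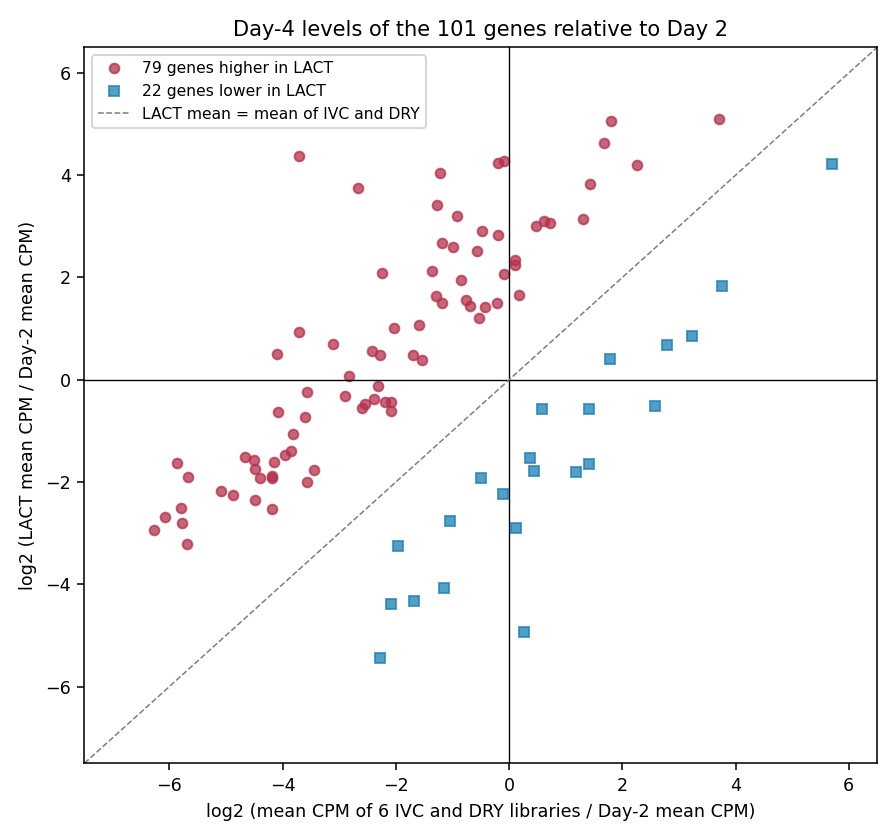
Ratio of the LACT mean to the Day-2 mean (vertical axis) against the ratio of the mean of the 6 IVC and DRY libraries to the Day-2 mean (horizontal axis), both as log2 of mean CPM, for the 79 genes higher (circles) and the 22 genes lower in LACT (squares). The rule keeps all points away from the dashed line of equal Day-4 levels, and the Day-2 mean lay above both Day-4 sides for the 34 circles and 8 squares of the lower left quadrant.

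The 22 genes lower in LACT held fewer extreme separations. Their gaps, the lowest IVC or DRY value divided by the highest LACT value, had a median of 2.41, and only 1 was 5 or more. That gene, ENSBTAG00000019161, is listed under lysosome and was at 0.153, 0.935 and 0.493 CPM in LACT, at 12.2, 9.62 and 14.8 CPM in IVC and at 9.32, 42.3 and 27.7 CPM in DRY, a gap of 9.975. On Day 2 it was at 0, 32.8, 0.0332, 0.0359 and 47.4 CPM, so that replicates 2 and 5 were above all IVC values and the other Day-2 libraries at or under 1 count. The comparison of LACT with Day 2 did not pass the threshold (edgeR, FDR = 0.0849). The next gap, 4.51, was that of ENSBTAG00000020321, listed under protein transport, at 1.03, 1.44 and 1.19 CPM in LACT, 6.51, 6.51 and 6.47 CPM in IVC and 9.64, 7.90 and 8.75 CPM in DRY. Its Day-2 values of 4.07, 44.9, 1.33, 21.6 and 50.0 CPM again differed widely between libraries, and it fell from Day 2 in LACT by 3.92 ± 1.02 on the log2 scale (edgeR, FDR = 0.00494), a call that was lost with 2 libraries per Day-4 group and Day-2 replicates 2 to 4.

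Against Day 2, 8 of the 22 genes (36.4%) rose in IVC and DRY and 3 fell, while in LACT 2 rose and 8 fell (36.4%). The shares of all genes tested are those given above, again without the Day-2 minimum that the 22 met. The median log2 ratio to Day 2 over the 22 genes was 0.40 in IVC and DRY and -1.79 in LACT. When the middle libraries were left out, 6 rose and 3 fell in IVC and DRY, and 2 rose and 5 fell in LACT, beside the shares of all genes given for that fit. The Day-2 mean was above both Day-4 sides in 8 genes, between them in 9 and below both in 5, again with no count over all genes.

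The genes that rose from Day 2 in LACT are given first. ENSBTAG00000008075, listed under endoplasmic reticulum and Golgi membrane, was at 1.26, 1.02, 1.56, 0.862 and 0.865 CPM on Day 2, at 71.6, 79.3 and 63.1 CPM in IVC, at 45.1, 43.7 and 43.9 CPM in DRY and at 21.7, 19.8 and 20.7 CPM in LACT. The 4 groups did not overlap, and the rise was 6.0 ± 0.36 in IVC and DRY (edgeR, FDR = 6.49e-09) and 4.52 ± 0.36 in LACT (edgeR, FDR = 1.69e-07). ENSBTAG00000002010, listed under endosome, transferase and metabolic pathways, was at 2.23, 1.55, 2.16, 2.44 and 1.63 CPM on Day 2, at 21.6, 28.6 and 14.7 CPM in IVC, at 32.9, 32.2 and 32.2 CPM in DRY and at 7.32, 6.88 and 7.07 CPM in LACT. It rose by 4.07 ± 0.44 in IVC and DRY (edgeR, FDR = 1.96e-06) and by 2.12 ± 0.45 in LACT (edgeR, FDR = 0.00115), with LACT again between Day 2 and the other Day-4 groups. The call in LACT was lost with 2 libraries per Day-4 group and Day-2 replicates 2 to 4, at 1.98. At the other end, ENSBTAG00000026266, a listed phosphoprotein, was at 169, 157, 125, 174 and 129 CPM on Day 2, at 41.1, 43.3 and 38.4 CPM in IVC, at 17.9, 25.2 and 21.5 CPM in DRY and at 2.21, 4.71 and 3.45 CPM in LACT. It fell by 2.00 ± 0.24 in IVC and DRY (edgeR, FDR = 5.75e-06) and by 5.17 ± 0.37 in LACT (edgeR, FDR = 5.9e-08). ENSBTAG00000006744 was likewise highest on Day 2, at 138, 128, 117, 151 and 122 CPM, and lowest in LACT, at 14.3, 13.4 and 13.8 CPM. It was at 34.3, 33.2 and 35.1 CPM in IVC, within its DRY range of 30.8, 36.7 and 33.5 CPM. Its falls were 1.60 ± 0.21 in IVC and DRY (edgeR, FDR = 1.21e-05) and 2.94 ± 0.28 in LACT (edgeR, FDR = 1.23e-06). In these genes LACT was the farthest from Day 2.

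The most abundant of the 22 in IVC and DRY was ENSBTAG00000000081, listed under endoplasmic reticulum and Golgi apparatus. It was at 102, 109 and 93.3 CPM in IVC, 89.5, 88.4 and 88.0 CPM in DRY, 43.0, 42.4 and 42.5 CPM in LACT and 52.3, 56.2, 83.3, 52.5 and 72.6 CPM on Day 2. All Day-2 values lay between LACT and the other Day-4 groups, and from Day 2 it rose by 0.95 ± 0.20 on the log2 scale in IVC and DRY (edgeR, FDR = 0.000953), a call that the same smaller set of libraries did not give, at 0.85. In LACT the change of -0.25 ± 0.24 did not pass the threshold (edgeR, FDR = 0.399). The next was ENSBTAG00000001788, listed under apical and basolateral plasma membrane, at 86.6, 59.7 and 115 CPM in IVC, 29.2, 31.3 and 30.0 CPM in DRY, 9.11, 4.57 and 6.82 CPM in LACT and 19.1, 3.03, 23.8, 1.40 and 1.60 CPM on Day 2. Its LACT values lay within the Day-2 range.

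IVC and DRY were also compared with each other, with edgeR on the 9 Day-4 libraries. Of the 79 genes, 10 were higher and 8 lower in DRY than in IVC, and of the 22 genes none was higher and 1 was lower (edgeR with Benjamini-Hochberg adjustment over 12069 genes), where 13.8% of all genes tested were called in either direction. The rule bears on this count, because its minimum of 0.5 CPM on the lower side was a mean over both groups and could be met through 1 of them. All 9 genes at the floor in 1 group were among the 18, and without them 5 of the other 70 were higher and 4 lower. Nothing is therefore read from the share of the 79. At an unadjusted p under 0.05 there were 27 of the 79 and 5 of the 22, where 31.3% of all genes passed. DESeq2 called 23 and 5, where it called 26.1% of all genes. With the middle library of each group left out, 5 of the 79 and none of the 22 were called, where 0.734% of all genes were. Leaving out IVC replicate 1, DRY replicate 3 or LACT replicate 3 alone gave 10, 10 and 11 of the 101. Of all genes tested, these fits called 471 of 11820, 458 of 11811 and 892 of 11695.

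The difference between DRY and IVC of the 9 genes at the floor is given as levels, with no test, since such genes could enter only through the group that held them. ENSBTAG00000008756, listed under sequence-specific DNA binding and RNA polymerase II transcription factor activity, was at 12.5, 16.2 and 14.6 CPM in DRY with at most 1 count in an IVC library. Its LACT values were 65.4, 50.9 and 58.6 CPM and its Day-2 values 14.5, 13.5, 1.29, 9.41 and 2.53 CPM, so that LACT was the highest group. In the other direction, ENSBTAG00000002136 was at 22.8, 25.2 and 18.7 CPM in IVC with at most 1 count in a DRY library. It was at 59.0, 113 and 87.0 CPM in LACT and at 13.5, 0.422, 0.0332, 3.37 and 0 CPM on Day 2, where 1 library was far above the rest. ENSBTAG00000007622 was at 5.96, 7.73 and 4.36 CPM in IVC, again with at most 1 count in a DRY library, and at 22.2, 209 and 115 CPM in LACT, the second-highest LACT mean of the 79 genes and the one with LACT libraries farthest apart among those named here. The single call among the 22 lower genes was ENSBTAG00000001788, which was lower in DRY than in IVC by 1.54 ± 0.34 on the log2 scale (edgeR, FDR = 0.0201).

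Of the 101 genes, 43 were in at least 1 of the study's lists of annotation terms, 28 of the 79 and 15 of the 22. These lists were built by the study on genes that differed in these samples, and some are shortened, so a count in them is a description and no independent evidence. Among the genes higher in LACT, 9 were listed under nucleus, 7 under phosphoprotein, 6 under coiled coil, 3 under cytoskeleton and 3 under the C2H2 zinc finger, a DNA-binding fold of many transcription factors. The 6 coiled-coil genes had LACT means of 7.31 to 49.7 CPM, IVC and DRY means of 0.955 to 16.6 CPM and Day-2 means of 8.34 to 198 CPM, and 5 of them fell from Day 2 in IVC and DRY and 2 in LACT. The 3 C2H2 zinc finger genes were low on Day 2, at means of 1.84 to 6.78 CPM, and at 10.4 to 20.1 CPM in LACT, and 1 of them rose from Day 2 in LACT while 1 fell in IVC and DRY.

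Endoplasmic reticulum or Golgi terms held 3 of the 22 lower genes, with means of 27.7 to 94.9 CPM in IVC and DRY and of 7.04 to 42.6 CPM in LACT, and all 3 rose from Day 2 in IVC and DRY. Transferase, the enzymes that move a chemical group between molecules, held 3, with means of 20.6 to 27.0 CPM in IVC and DRY and of 4.89 to 7.09 CPM in LACT. The mitochondrion held 2, 1 of which is also listed under the citrate cycle, with means from 9.83 to 34.0 CPM in IVC and DRY and from 2.12 to 7.92 CPM in LACT. It also held 1 gene higher in LACT, ENSBTAG00000001229, with means of 2.99 CPM in IVC and DRY and 16.7 CPM in LACT. Of the 22 lower genes, 1 was listed under nucleus and 2 under phosphoprotein.

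The same rule was applied with IVC or DRY as the group apart. It found 47 genes higher and 52 lower for IVC, and 48 higher and 59 lower for DRY. The share of higher genes was 78.2% for LACT, 47.5% for IVC and 44.9% for DRY. After scaling by TMM, by DESeq2's size factors or by totals without the 10 genes of highest counts, the share stayed between 72.6% and 76.4% for LACT, between 41.4% and 47.4% for IVC and between 44.3% and 46.9% for DRY. This difference was not tested. The genes higher in 1 group had a Day-2 mean above both Day-4 sides in 34 of 79 for LACT, 14 of 47 for IVC and 17 of 48 for DRY. For the genes lower in 1 group these were 8 of 22, 32 of 52 and 27 of 59. Leaving out single libraries moved these counts, mostly upward, since a rule on all values is loosened by having fewer of them. Without LACT replicate 3, which lay between the other LACT libraries, the counts stayed at 79 and 22. The rule found 197 genes higher and 39 lower in LACT without LACT replicate 1, and 154 and 38 without LACT replicate 2. The count of lower genes also moved to 45 without DRY replicate 1, to 37 without DRY replicate 2 and to 34 without IVC replicate 3.

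**Figure D5:**
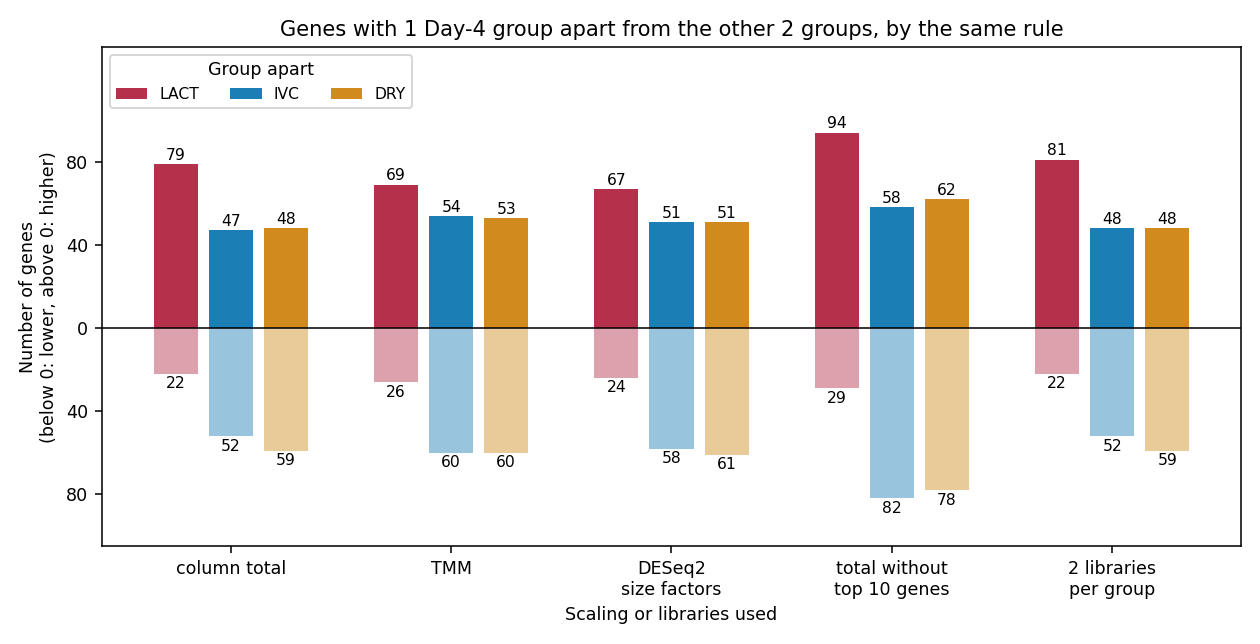
Number of genes that the rule found higher (bars above 0) or lower (pale bars below 0) in LACT, IVC or DRY than in both other Day-4 groups, for 4 ways of scaling the counts and with 2 libraries per Day-4 group. In all 5 settings LACT had more higher than lower genes and IVC and DRY had more lower than higher genes.

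The 2-fold threshold separates genes with nearly equal values. Just inside it on the higher side, ENSBTAG00000001410 had a gap of 2.01, with LACT values from 5.57 to 7.55 CPM and a highest IVC or DRY value of 2.77 CPM. Just outside it, ENSBTAG00000046740 had a gap of 1.99, with LACT values from 5.53 to 6.21 CPM and a highest value of 2.78 CPM. On the lower side, ENSBTAG00000002010 was just inside at 2.01, with a highest LACT value of 7.32 CPM and a lowest IVC or DRY value of 14.7 CPM. ENSBTAG00000047362 was just outside at 1.995, with 2.59 and 5.17 CPM. In all, 31 of the 79 and 12 of the 22 genes had a gap under 2.5, and with a 3-fold threshold 30 higher and 5 lower genes were left.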

How the data were processed

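The authors deposited a table of read counts per Ensembl gene for the 14 libraries. Per the labels and the study's methods, reads were checked with FastQC 0.11.9, trimmed with Trimmomatic, aligned with STAR 2.7.0b to bosTau9 and counted with featureCounts of Subread 2.0.3. The annotation release and the strand setting are not given in the sources used here, so reads of a gene and of an antisense partner cannot be told apart.

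The genes, the lists and the tests were chosen with earlier results of these data known. CPM were counts over column totals. Tests used edgeR 4.0.16 (R 4.3.3) with TMM scaling, a filter of 1 CPM in 3 or more libraries, 1 coefficient per group, robust quasi-likelihood fits and an FDR under 0.05. The SE printed after ± is the absolute log2 change divided by the square root of the F statistic of the test. No test was made between LACT and the other Day-4 groups for these genes. IDs were named by rule: per direction and comparison, those with the widest gaps, the highest levels, the lowest FDR and the values nearest to the threshold, at most 2 each. ENSBTAG00000000900 was added after its values were seen. The alternatives were other scalings, filters, thresholds, DESeq2 1.42.0, a weighted likelihood ratio test in edgeR, a block for replicate numbers, and libraries left out, and the fits without Day-2 replicates 1 and 5 were chosen after the data were seen. Each test was tried on simulated data.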

Additional observations from a re-analysis of the deposited data

Results flagged for a closer look

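On Day 2, ENSBTAG00000002136 had 1 library, replicate 1, at 13.5 CPM, far from the other 4 by Dixon's criterion, while 19 named genes were examined in this way and chance alone sets a library apart in about 1 of 20 groups. Of the 79 genes higher in LACT, 5 had every LACT library above and every IVC and DRY library below all Day-2 libraries. Of the 22 genes lower in LACT, 2 had every LACT library below and every IVC and DRY library above all Day-2 libraries. These differences between the groups were not tested, since the genes were chosen by them, and their share over all genes was not counted.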

How the results depend on the processing

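The rule found 30 genes higher and 5 lower in LACT with a 3-fold threshold, 145 and 72 with a 1.5-fold threshold, and 122 higher without the Day-2 minimum. Leaving out 1 Day-4 library, which loosens the fold part of the rule, gave 79 to 197 higher and 22 to 45 lower genes. The other scalings and minimums gave counts within 1.5 times of 79 and 22, but the genes were not all the same. After TMM scaling, 63 of the 79 and 19 of the 22 still met the rule. With DESeq2's size factors these were 62 and 19, and with totals without the 10 genes of highest counts 73 and 19. The count of the 101 genes called between DRY and IVC was 9 at an FDR under 0.01 (450 of all 12069 genes). It was 5 with 2 libraries per Day-4 group (0.734% of all genes) and 12 in the fit on 14 libraries (825 of all 13390 genes). With 1 library left out it was 10 to 20, while the count over all genes ranged from 458 to 1999. Between Day-4 libraries of the same replicate number the correlation of deviations was -0.06 to 0.04, so no pairing was seen. The middle libraries deviate little from their group means and could hardly have shown a pairing. The fit with the replicate number as a block called 11 of the 101 genes (935 of all 12069 genes). Of the 101 genes, 50 were called for LACT against Day 2 (53.4% of all genes), 29 with 2 libraries per Day-4 group (39.4% of all genes) and 22 with Day-2 replicates 2 to 4 as well (33.6% of all genes). With 1 library left out it was 38 to 52, while the count over all genes ranged from 5969 to 7259. For IVC and DRY against Day 2, 59 were called (61.2% of all genes). With 1 library left out it was 57 to 63, while the count over all genes ranged from 7488 to 8145. The log2 change of ENSBTAG00000001788 in LACT from Day 2, -0.23 and not called, turned to 0.65 in the likelihood ratio test, to 0.12 without Day-2 replicate 1, to 0.48 without Day-2 replicate 3 and to 0.13 without LACT replicate 2, over a range of -0.55 to 0.48. The causes of these shifts were not tested. With 3 libraries or fewer per Day-4 group, some close to means of others, small differences could not be resolved, and floors cover counting error only.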
